A study of Homo sapiens with 6 samples.

Results

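The genes of fatty acid synthesis, elongation and desaturation were followed in KM12, an established line of human colorectal cancer. The 10 genes were chosen by symbol, with a rule that uses no measured value but with earlier results of these data known: ACACA, FASN, SCD, ELOVL1, ELOVL5, ELOVL6, ELOVL7, FADS1, FADS2 and FADS3. All 10 had a row among the 27134 genes of the deposited table, and all 10 passed the filter on low values (a mean of at least 1 normalised count), which kept 21775 genes. RNA was sequenced from 3 libraries of cells with CDO1 overexpression and 3 libraries of mock cells labelled as control. CDO1 encodes cysteine dioxygenase, which oxidises cysteine. Both groups were the same line at passages 10 to 15, and neither the vector nor the number of clones behind each group is given in the sources used here. The labels do not tell whether a group's 3 libraries come from separate cultures, so the p-values measure the spread between libraries, which may be technical.

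Mammalian cells build fatty acids from acetyl-CoA. Acetyl-CoA carboxylase (ACACA) makes malonyl-CoA, and fatty acid synthase (FASN) uses it to build palmitate. The ELOVL proteins are elongases of the endoplasmic reticulum that add carbon pairs to an acyl chain, each with its own range of substrates, and the desaturases SCD, FADS1 and FADS2 put in double bonds. SCD makes monounsaturated fatty acids such as oleate. FADS2, ELOVL5 and FADS1 act in turn on essential dietary fatty acids to give polyunsaturated products such as arachidonic acid. Most of these genes are known targets of the SREBP transcription factors, and lipogenic genes are often abundant in colorectal tumours.

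The promoters shown first are those of ELOVL5 and FADS1, the members that fell with CDO1, and the FADS2 window whose start is nearer that of FADS1. They come from RefSeq on GRCh38.p14, where 9 members have 12 promoter windows of 250 bases before to 50 after a start site. Capitals mark the cAMP response element TGACGTCA, the E-box CACGTG and the CCAAT box (CCAAT) on either strand.
ELOVL5 (chr6:53348901-53349200, minus strand): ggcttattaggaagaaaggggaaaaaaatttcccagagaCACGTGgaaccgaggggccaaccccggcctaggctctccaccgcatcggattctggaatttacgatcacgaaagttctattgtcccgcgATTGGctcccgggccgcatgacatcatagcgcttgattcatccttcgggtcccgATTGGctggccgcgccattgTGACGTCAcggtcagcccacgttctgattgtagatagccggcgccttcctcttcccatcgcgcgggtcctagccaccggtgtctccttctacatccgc
FADS1 (chr11:61816954-61817253, minus strand): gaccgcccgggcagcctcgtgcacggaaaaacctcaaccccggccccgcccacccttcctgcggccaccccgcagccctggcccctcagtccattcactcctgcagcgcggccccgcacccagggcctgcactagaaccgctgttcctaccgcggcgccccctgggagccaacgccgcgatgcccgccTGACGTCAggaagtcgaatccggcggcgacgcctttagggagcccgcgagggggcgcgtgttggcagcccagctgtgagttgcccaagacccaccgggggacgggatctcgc
FADS2 (chr11:61816154-61816453, plus strand): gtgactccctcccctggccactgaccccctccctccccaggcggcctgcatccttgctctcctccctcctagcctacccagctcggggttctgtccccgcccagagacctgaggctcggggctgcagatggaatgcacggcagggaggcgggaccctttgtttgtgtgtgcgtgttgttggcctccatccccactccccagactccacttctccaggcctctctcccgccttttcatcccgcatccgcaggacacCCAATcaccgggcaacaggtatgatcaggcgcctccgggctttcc
The palindrome TGACGTCA stood 48 bases before the start of ELOVL5 and 62 bases before that of FADS1, and in no other member window. It was present in 649 of 35116 promoter windows in the table (1.85%). The letters were searched after they had been noticed in these promoters, so the match is a description. A core of the sterol regulatory element, TCACNCCAC, was in none of the 12 windows and in 1.13% of all windows. FASN has no window, so its promoter was not searched for any of these motifs. The E-box was found in the ELOVL5 window alone among members (7.26% of all windows), CCAAT in 7 of 12 (34.6%) and the GC box GGGCGG in 9 of 12 (45.0%), all searched on both strands. The FADS1 window start and the nearer FADS2 window start are 599 bases apart on opposite strands. The FADS2 windows lie inside the annotated span of FADS1, and the annotated start of the FADS2 gene, 61792980, has no window. Other starts of either gene were not searched.

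Reads assigned to genes ran from 18544419 to 22198173 in the CDO1 libraries and from 17516640 to 22159756 in the mock libraries. Values are normalised counts, that is, reads divided by a size factor for each library. CDO1 itself had 2519, 2134 and 2540 reads in the CDO1 libraries and 76, 0 and 0 in the mock libraries, so mock replicate 1 stands apart on the gene that checks the labels. It also stands apart from mock replicates 2 and 3 on the endothelial marker KDR (53, 1 and 0 reads in mock) and the fibroblast marker PDGFRA (21, 0 and 0). The CDO1 libraries held reads of both, at 8, 5 and 13 for KDR and 4, 9 and 9 for PDGFRA. Summed colon epithelial markers (9 of 9 measured) lay at 194259 to 208055 normalised counts with CDO1 and 144605 to 153135 in mock. By limma 8 of the 9 rose, against 11.3% of all genes tested. All 9 had a mean above 100, and among genes with a mean of at least 100, 36.3% passed in either direction. Of 5 fibroblast markers, COL1A2 and COL3A1 were not analysed here, and the sum of the other 3 was 139 to 155 with CDO1 and 204 to 312 in mock. COL1A1 was lower, at a mean of 103 with CDO1 against 225 in mock. PDGFRB (39.5 against 35.2) and PDGFRA (7.35 against 6.27) had higher means with CDO1 and did not pass. The part of these marker differences in the results was not tested. Leukocyte (2 of 4 measured), endothelial (4 of 4), hepatocyte (2 of 3) and adipocyte (2 of 3) markers summed to at most 82.4 normalised counts in any library, and PTPRC, CD3E, ALB and ADIPOQ, which define such cells, were not analysed here. Among these markers only PECAM1 (endothelial) passed, as higher, at 6, 6 and 7 reads with CDO1 against 0, 2 and 2 in mock. Single libraries also differed in how counts moved with GC content: the deviation from the gene mean had a Spearman's rho with GC of -0.347, 0.0004 and -0.286 in CDO1 replicates 1 to 3 and 0.21, 0.539 and -0.238 in mock replicates 1 to 3, over the 10926 genes that have both a mean of at least 100 and a GC value.

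In cells with CDO1, 2 of the 10 genes fell and 3 rose. ELOVL5, the elongase of polyunsaturated chains, fell 3.15-fold, and FADS1, the desaturase of the last step towards arachidonic acid, fell 1.63-fold. ELOVL7, ACACA and ELOVL1 rose by 1.24-fold, 1.22-fold and 1.13-fold. FASN, SCD, FADS2, FADS3 and ELOVL6 did not pass the test. The test was limma on log2 of the normalised count plus 1, fitted over the whole table at an adjusted p of 0.05. The count of 5 called members stands against a background of 24.0% of 21775 genes tested, with 11.3% higher and 12.7% lower. All 10 members have a mean above 100, and among the 10941 genes at that level the background was 36.3%. The groups did not overlap in the same 5 members, against 37.1% of genes tested. The median log2 fold change was -0.0032 over the 10 members and -0.0035 over all genes tested. Over genes with a mean of at least 100 it was 0.0205. The 5 called members also passed in edgeR (35.7% of its genes called), in DESeq2 (28.6%) and in the authors' deposited table (15.9%). Without mock replicate 1 the log2 fold changes were -1.68 for ELOVL5, -0.71 for FADS1, 0.28 for ACACA, 0.34 for ELOVL7 and 0.20 for ELOVL1, all still past the threshold. In bulk RNA, fewer cells that express a gene and less of its RNA per cell cannot be told apart.

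**Figure D1:**
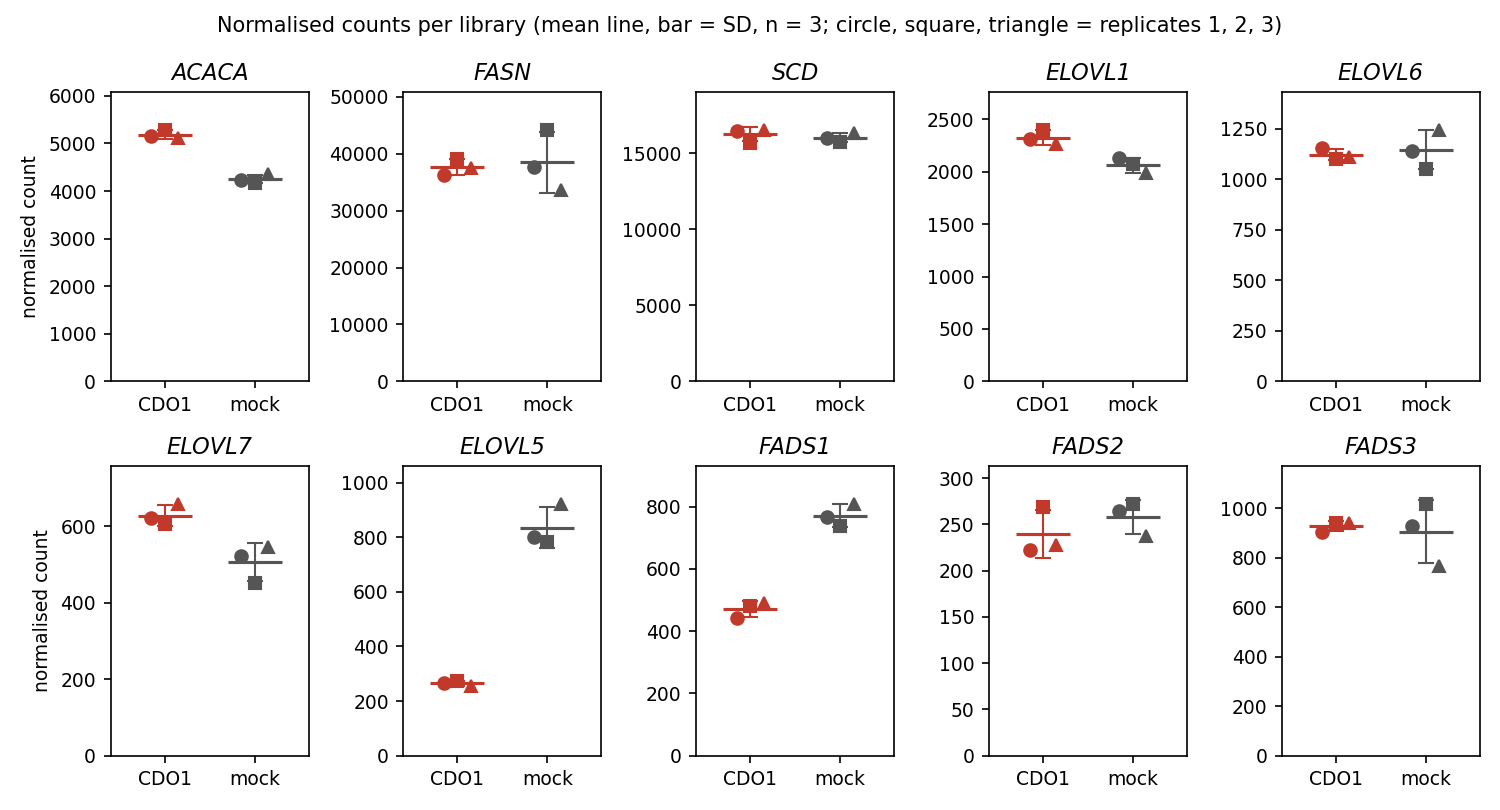
Normalised counts of the 10 genes (vertical axes from 0, a scale for each gene), with a point per library, a line at the mean and a bar of 1 SD (n = 3 per group; red CDO1, grey mock). ELOVL5 has 256 to 273 counts with CDO1 and 783 to 922 in mock, and FADS1, ACACA, ELOVL1 and ELOVL7 also show no overlap between groups.

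ELOVL5 (ENSG00000012660, GRCh38 chromosome 6, 53267398 to 53349179, minus strand) lengthens polyunsaturated fatty acids. It had 267, 273 and 256 normalised counts in CDO1 replicates 1 to 3, from 271, 249 and 279 reads, and 801, 783 and 922 in mock replicates 1 to 3, from 894, 803 and 815 reads. Every CDO1 library lay below every mock library. The mean was 265 ± 8.34 with CDO1 and 835 ± 75.5 in mock (SD, n = 3 each). By limma the log2 fold change was -1.65 (SE 0.08), with a 95% interval of -1.81 to -1.48 and an adjusted p of 6.39e-12. Among the 10941 genes with a mean of at least 100 it ranked as the 56th lowest log2 fold change. Leaving out each library in turn gave -1.69 to -1.57, with adjusted p of at most 1.62e-09. With the GC trend removed it was -1.72. The authors' deposited table gives -1.56.

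FADS1 (ENSG00000149485, chromosome 11, 61799625 to 61829318, minus strand) is the desaturase that forms arachidonic and eicosapentaenoic acid. Its normalised counts were 444, 482 and 491 in CDO1 replicates 1 to 3 and 768, 737 and 809 in mock replicates 1 to 3. Again the groups did not overlap, with coefficients of variation of 5.33% with CDO1 and 4.65% in mock. The mean was 472 ± 25.2 with CDO1 and 771 ± 35.9 in mock (SD, n = 3 each), and the log2 fold change was -0.71 with an SE of 0.07 (95% interval -0.85 to -0.56, limma adjusted p = 2.1e-07). Leave-one-out values ran from -0.74 to -0.66, and removing the GC trend gave -0.72. FADS1 and FADS2 overlap on opposite strands over 490 exonic bases, which is 4.79% of FADS1's exons and 4.44% of those of FADS2. Whether the counting used strand is not given in the sources used here, so reads in those bases cannot be assigned with certainty. FADS2 also shares 49 exonic bases, 0.44% of its exons, with FEN1 on the same strand. FEN1 had 2477 to 2886 normalised counts per library.

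FADS2 (ENSG00000134824, chromosome 11, 61792980 to 61867354, plus strand), the desaturase that starts the polyunsaturated route, had 222, 269 and 228 normalised counts with CDO1 and 264, 272 and 238 in mock. The groups overlapped. The log2 fold change was -0.11 (95% interval -0.32 to 0.10, limma adjusted p = 0.489), an interval that reaches from 0.802-fold to 1.07-fold of the mock level. FADS3 (ENSG00000221968, chromosome 11, 61873519 to 61892051, minus strand), which acts on sphingoid bases, stood at 905, 939 and 940.5 with CDO1 and at 930.2, 1017 and 767 in mock. The mock libraries lay on both sides of the CDO1 libraries, with a log2 fold change of 0.05 (95% interval -0.12 to 0.22, adjusted p = 0.741 in limma).

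ACACA (ENSG00000278540, chromosome 17, 37084988 to 37406818, minus strand) catalyses the committed step of fatty acid synthesis. It had 5146, 5288 and 5124 normalised counts in CDO1 libraries and 4232, 4174 and 4354 in mock libraries, with all CDO1 values above all mock values. The mean was 5186 ± 88.9 with CDO1 and 4253 ± 92.0 in mock (SD, n = 3 each), a log2 fold change of 0.29 with an SE of 0.05 (95% interval 0.18 to 0.39, limma adjusted p = 0.000152). All 17 other settings gave ACACA an adjusted p under the threshold, at log2 fold changes of 0.23 to 0.30.

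FASN (ENSG00000169710, chromosome 17, 82078333 to 82098332, minus strand), the synthase that follows it, was by far the most counted member. It had 36290.4, 39059.9 and 37411 normalised counts with CDO1, against 37628, 44197 and 33612 in mock. Mock replicate 2 was the highest library and mock replicate 3 the lowest, so the CDO1 values lay inside the mock range. The log2 fold change was -0.03 (95% interval -0.18 to 0.13, limma adjusted p = 0.852). FASN transcripts have a GC content of 65.3%, above that of 97.3% of genes with a mean of at least 100, and mock replicates 2 and 3 are the libraries with the strongest positive and a negative GC trend. CDO1 replicates 1 and 3 had more negative GC trends (Spearman's rho -0.347 and -0.286) than mock replicate 3 (-0.238). Both nevertheless held more FASN counts, at 36290.4 and 37411 against 33612. With the GC trend removed, the log2 fold change of FASN was 0.10 (adjusted p = 0.00865), so FASN passed as higher under that setting alone. SREBF1, the gene of the SREBP-1 factor (GC 63.5%), showed the same order in mock. It had 9095, 9681 and 9776 normalised counts with CDO1 and 9352, 10814 and 7987 in mock. Whether GC content accounts for the spread of either gene between libraries was not tested.

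SCD (ENSG00000099194, chromosome 10, 100347124 to 100364834, plus strand), the oleate-forming desaturase, had 16456.5, 15700.4 and 16541.6 normalised counts with CDO1, against 16008.4, 15728.5 and 16316.5 in mock. The values interleaved, and the coefficient of variation was 2.85% with CDO1 and 1.84% in mock. The log2 fold change was 0.02 (95% interval -0.08 to 0.12, limma adjusted p = 0.83), an interval of 0.944-fold to 1.09-fold of the mock level. The processed pseudogene SCDP1 had at most 1.13 normalised counts in any library. ELOVL6 (ENSG00000170522, chromosome 4, 110045846 to 110199199, minus strand), which extends palmitate to stearate, had 1152, 1101 and 1110.4 with CDO1 and 1141, 1050.4 and 1244 in mock. These groups overlapped as well (log2 fold change -0.03, 95% interval -0.16 to 0.11, adjusted p = 0.816 in limma).

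ELOVL7 (ENSG00000164181, chromosome 5, 60751791 to 60844389, minus strand), an elongase of saturated long chains, had 621, 605 and 659 normalised counts with CDO1 and 523, 451 and 546 in mock. The groups did not overlap. The mean was 628 ± 27.3 with CDO1 and 507 ± 50.02 in mock (SD, n = 3 each), and the log2 fold change was 0.31 with an SE of 0.08 (95% interval 0.15 to 0.48, limma adjusted p = 0.00536). ELOVL1 (ENSG00000066322, chromosome 1, 43363397 to 43368074, minus strand), which makes very long saturated and monounsaturated chains, had 2308, 2399.8 and 2261 with CDO1 and 2127, 2069.6 and 1984 in mock. Its groups did not overlap either, at a log2 fold change of 0.17 with an SE of 0.05 (95% interval 0.06 to 0.29, limma adjusted p = 0.022). This call ended with equal library totals (adjusted p = 0.0528), without CDO1 replicate 1 (0.0669), without CDO1 replicate 2 (0.0844) and without mock replicate 3 (0.0554), with the direction kept.

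**Figure D2:**
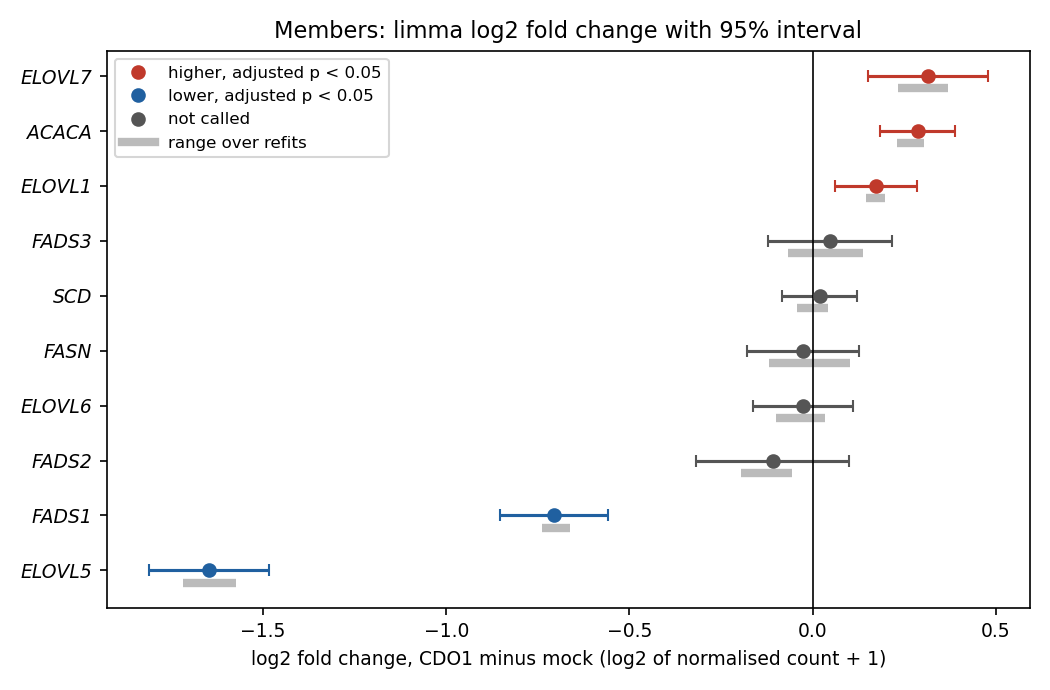
Log2 fold change of the 10 genes (horizontal axis, CDO1 minus mock, computed on log2 of normalised counts with 1 added), with the 95% interval of limma and, as a grey bar, the range over the refits under other settings. ELOVL5 at -1.65 and FADS1 at -0.71 lie apart from the other 8, which run from -0.11 to 0.31.

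To see how members stood to each other without any scaling between libraries, read counts were divided within each library for 4 pairs chosen after the values had been seen. ELOVL5 to ELOVL6, the elongase of polyunsaturated chains over that of palmitate, was 0.232, 0.248 and 0.231 with CDO1, against 0.702, 0.746 and 0.741 in mock. FADS1 to FADS2 was 2.0, 1.79 and 2.16 with CDO1, against 2.91, 2.71 and 3.4 in mock. ACACA to FASN was 0.142, 0.135 and 0.137 with CDO1, against 0.112, 0.0944 and 0.13 in mock. In all 4 pairs, the fourth being ELOVL7 to ELOVL6 at 0.561 ± 0.0285 with CDO1 and 0.442 ± 0.0151 in mock (SD, n = 3 each), the groups did not overlap. Each had a two-sided exact permutation p of 0.1, the smallest that 3 against 3 libraries can give (0.1 adjusted over the 4 ratios). The difference in log2 ratio was -1.62 for ELOVL5 to ELOVL6, -0.60 for FADS1 to FADS2, 0.31 for ACACA to FASN and 0.34 for ELOVL7 to ELOVL6. For ACACA to FASN that difference was 0.13 with the GC trend removed, 0.19 without mock replicate 2 and 0.42 without mock replicate 3.

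**Figure D3:**
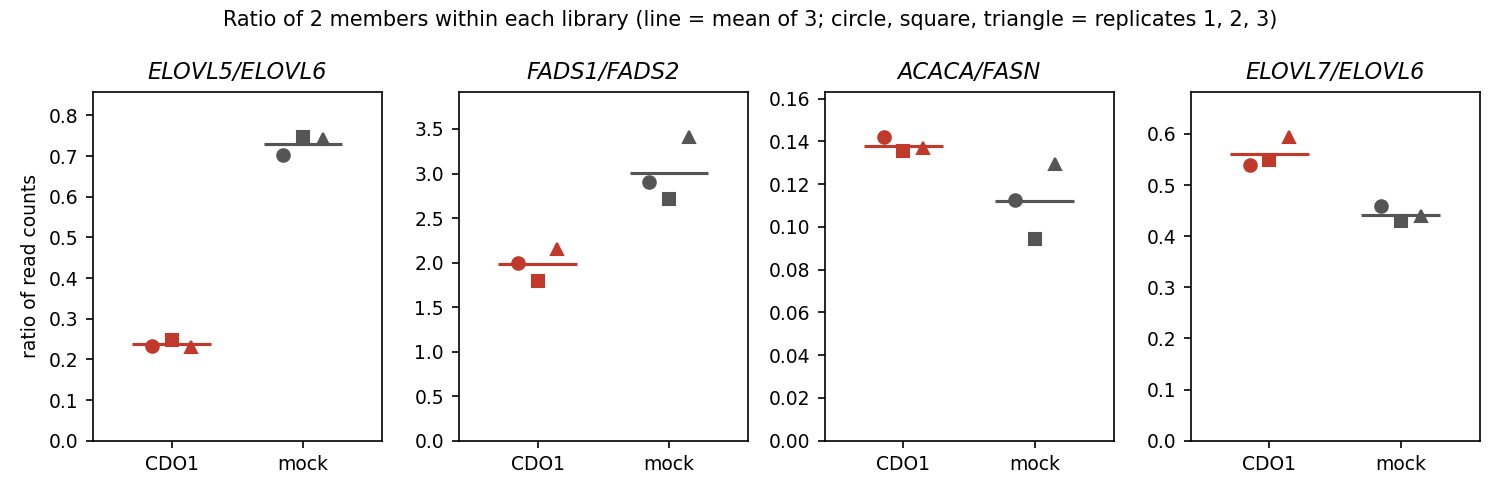
Ratio of read counts of 2 members within each library (vertical axes from 0), with a point per library and a line at the mean of 3 (red CDO1, grey mock). ELOVL5 to ELOVL6 is 0.231 to 0.248 with CDO1 and 0.702 to 0.746 in mock.

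Compared per kilobase of annotated exon, FASN and SCD stood far above the rest, at 4014 and 3027 normalised counts per kilobase with CDO1 and 4109 and 2987 in mock. ELOVL1 followed at 927 per kilobase with CDO1 and 822 in mock, and ACACA at 399 with CDO1 and 327 in mock. The lower levels in CDO1 libraries ran from ELOVL6 (154 per kilobase) and FADS3 (148) over ELOVL7 (137), ELOVL5 (69.6) and FADS1 (46.2) to FADS2 (21.7). In mock libraries ELOVL5 stood above ELOVL6, FADS3 and ELOVL7, at 219 against 157, 144 and 111 normalised counts per kilobase. These levels use all annotated exons, which understates genes with many rarely used exons: per kilobase of the longest transcript, FADS1 was at 104 with CDO1 and 170.5 in mock. By that length the order in CDO1 libraries turned for FADS1 over ELOVL5 (104 against 86.1) and for FADS3 over ELOVL6 (175 against 174). The 10 genes together held 0.318% to 0.326% of all normalised counts in the CDO1 libraries and 0.307% to 0.353% in the mock libraries, with FASN making up 56.9% to 59.1% of that sum with CDO1 and 55.3% to 62.7% in mock.

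Other genes of the route were read from lists that had been set with earlier results of these data known. Their counts stand against a background of 24.0% of all genes tested and 36.3% of those with a mean of at least 100. Among 14 measured genes of the elongation cycle and other desaturases, 4 rose, 3 fell and 7 did not pass, with a median log2 fold change of -0.12. CYB5A, a cytochrome that passes electrons to desaturases, rose 1.47-fold, to 1305 ± 66.3 with CDO1 against 888 ± 15.7 in mock (SD, n = 3 each). HSD17B12 and HACD3, which carry out the reduction and dehydration that follow each elongase step, rose, with log2 fold changes of 0.25 and 0.22, as did the dehydratase HACD2 (0.19). TECR, of the same cycle, went the other way, at -0.15 with no overlap between groups. It missed the threshold in limma (adjusted p = 0.053) and in DESeq2 (adjusted p = 0.0519), and passed in edgeR (adjusted p = 0.0413). ELOVL3, another elongase, fell to 38.4 ± 6.2 with CDO1 against 74.3 ± 5.73 in mock (SD, n = 3 each; log2 fold change -0.95, limma adjusted p = 0.00055). SCD5, the second stearoyl-CoA desaturase, fell by 0.29 on the log2 scale, and the outer mitochondrial cytochrome CYB5B by 0.21. ELOVL2 had no reads in the CDO1 libraries and 4, 3 and 0 in mock, too few for a fold. ELOVL4 and FADS6 were not analysed here. HACD2 lost its call under 5 of the 17 settings.

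In the supply of acetyl-CoA and citrate, 3 of 8 genes rose, none fell and 5 did not pass (median 0.13). The share called was 37.5%, against 24.0% of all genes tested and 36.3% of those with a mean of at least 100. ME1, a cytosolic source of NADPH, rose 1.54-fold and IDH1 1.47-fold. The citrate synthase CS rose by 0.16 on the log2 scale and lost its call under 6 of 17 settings. ATP citrate lyase, ACLY, stood at 10877 ± 454 with CDO1 and 10030 ± 242 in mock (SD, n = 3 each; log2 fold change 0.12, limma adjusted p = 0.102). Of 17 SREBP and lipogenic regulators tested, 2 rose, 2 fell and 13 did not pass (median 0.02), so 23.5% were called. THRSP, also in this list, did not pass the filter on low values. INSIG1, a sterol-responsive SREBP target that retains SCAP in the endoplasmic reticulum, rose 1.27-fold, and the AMP kinase subunit PRKAA1 rose 1.16-fold. The other catalytic subunit, PRKAA2, fell 2.41-fold, to 49.9 ± 4.62 with CDO1 against 120 ± 23.5 in mock (SD, n = 3 each), and MLXIPL, the glucose-responsive factor ChREBP, fell 1.37-fold. SREBF1 and SREBF2 had log2 fold changes of 0.03 (limma adjusted p = 0.823) and 0.13 (0.0838).

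Genes that activate or place the finished acyl chains moved both ways. Among 14 acyl-CoA synthetases and carriers, 4 rose, 3 fell and 7 did not pass (median -0.06): the synthetase ACSL1 rose 1.25-fold, the acyl-CoA binding protein DBI 1.27-fold and SLC27A2 1.29-fold, and the low-level ACSL6 rose by 1.25 on the log2 scale. SLC27A6 and SLC27A1, of the same family of fatty acid transport proteins as SLC27A2, fell 2.2-fold and 1.6-fold. ACSL4, which prefers arachidonic acid, fell by 0.20 on the log2 scale. That call ended without CDO1 replicate 1 or 3 or mock replicate 1 or 3. Of 9 lysophospholipid acyltransferases, 2 rose and none fell (median -0.02), LPCAT2 by 1.26-fold and LPCAT3, which puts polyunsaturated chains into phospholipids, by 1.24-fold. LPCAT3 missed the threshold without mock replicate 1. In mitochondrial fatty acid synthesis, HSD17B8, a subunit of its ketoacyl reductase, rose 1.42-fold, ACSF3, which makes malonyl-CoA in mitochondria, fell 1.24-fold and 5 of 7 did not pass (median 0.04). Over all 75 context genes tested, 17 rose and 10 fell, and the 27 called are 36.0% of them, against 24.0% of all genes tested and 36.3% of those with a mean of at least 100.

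The 3 desaturase genes FADS1, FADS2 and FADS3 lie side by side on chromosome 11. Of 6 neighbours, MYRF, a membrane-bound transcription factor, fell 1.77-fold, to 403 ± 16.0 with CDO1 against 711 ± 101 in mock (SD, n = 3 each; log2 fold change -0.81, limma adjusted p = 5.75e-07). FTH1, the ferritin heavy chain, rose 1.33-fold. TMEM258, FEN1 and RAB3IL1 did not pass, at log2 fold changes of -0.13, -0.11 and -0.10. BEST1 did not pass either and had at most 4 reads in any library, too few for a fold.

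**Figure D4:**
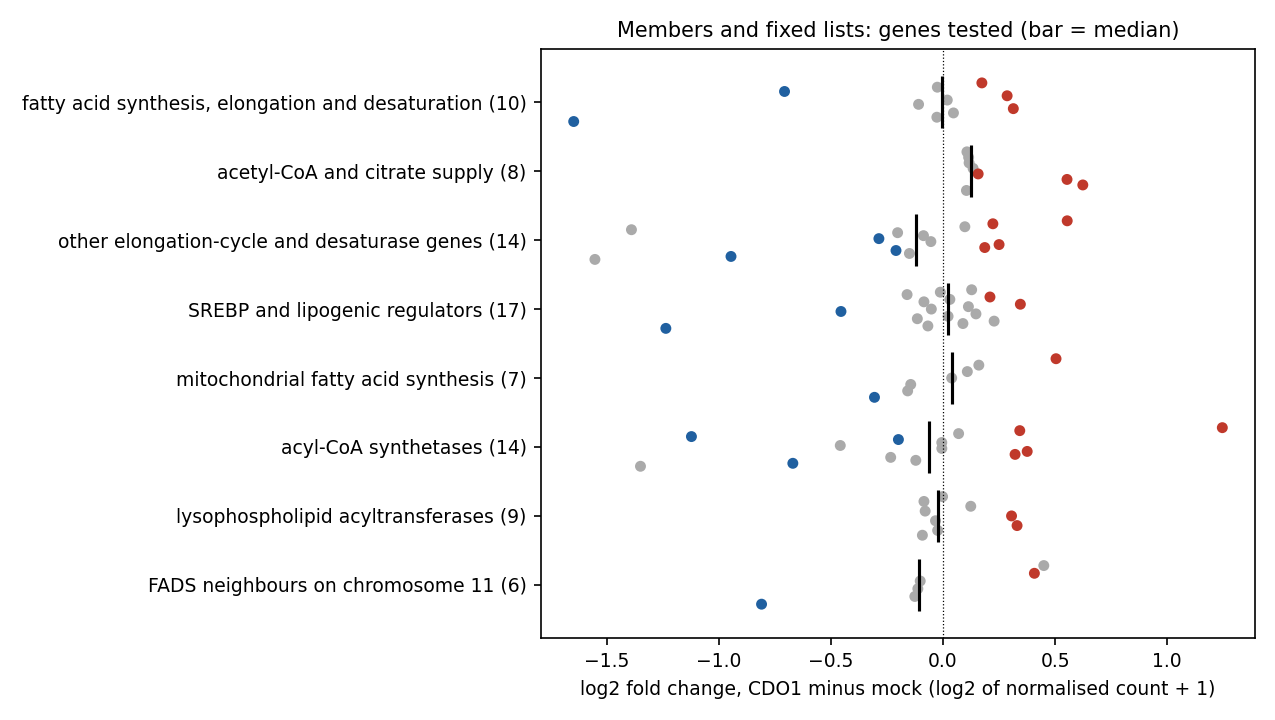
Log2 fold change (horizontal axis, CDO1 minus mock, computed on log2 of normalised counts with 1 added) of each gene tested in the 10-gene set and the 7 other lists, with the number of genes in parentheses. Red marks genes that rose and blue genes that fell at an adjusted p under 0.05 in limma, grey the rest, and a black bar each median, which lies between -0.12 and 0.13.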

How the data were processed

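RNA-seq libraries of 3 CDO1 and 3 mock KM12 samples were analysed by group. The submitters' processing notes name STAR 2.5.1b, DESeq2 1.10.1 and build GRCh38. For the read counter, strand setting and annotation, nothing is stated in the sources used here. As deposited by the authors, signal values are gene counts over a size factor per library. The deposited log2 fold change, p-value and adjusted p-value are the authors' own comparison, per the file headers. Whole reads were recovered for 100% of values (tolerance 0.001 reads).

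limma 3.58.1 (trend, R 4.3.3) was fitted to log2 of normalised counts with 1 added, keeping genes whose mean reached 1, with Benjamini-Hochberg adjustment over 21775 genes. This scale understates changes of low genes. Folds printed are ratios of group means, except the interval limits given as folds, which are the limma limits taken from the log2 scale. edgeR 4.0.16 and DESeq2 1.42.0 were run on recovered reads as alternatives. Other alternatives were filters, pseudocounts, equal library totals, a GC correction (each library's lowess trend subtracted, span 0.3), a replicate block, leaving out libraries and the authors' deposited comparison. Fits were tested on simulated data. Libraries of a group differed beyond sampling noise (chi-square 2.1 to 8.29 per degree of freedom).

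Coordinates, exon lengths and GC content came from GENCODE 29 on GRCh38, whose release may differ from the authors' annotation, and names from a reference table holding 26577 of 27134 identifiers. The 10 genes, the lists and the motifs were chosen with earlier results of these data known. All 10 genes are named. Called genes of a list are named by smallest p, at most 4, and other list genes with their values. The within-library ratios were chosen after their values had been seen.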

Additional observations from a re-analysis of the deposited data

How the results depend on the processing

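The numbers of genes that rose and fell kept within 1.5 times of 3 and 2 of the 10 under all 17 alternatives: 2 to 4 rose and 2 fell. ELOVL5, FADS1, ACACA and ELOVL7 passed under each of the 17 and ELOVL1 under 13. The same 5 genes passed in edgeR, DESeq2 and the authors' deposited table. Among genes that did not pass, SCD turned to -0.0075 with equal library totals and -0.042 with the GC trend removed, and FASN to 0.10 with the GC trend removed, past the threshold. With each library left out in turn, FASN ran from -0.12 to 0.079, FADS3 from -0.068 to 0.14 and ELOVL6 from -0.088 to 0.034. The cause was not tested. Genes called over the whole table ranged from 4002 to 6395, with 5229 in the reported fit, and called context genes reached 40 with the GC trend removed, against 27. Neither scaling moved the median gene by over 0.1. Whether the replicate numbers pair the libraries was not settled. Same-numbered deviations from the group means correlated at 0.0777, 0.299 and 0.0862 for replicates 1, 2 and 3. CDO1 replicates 2 and 3 correlated best with the mock library of the same number, and CDO1 replicate 1 with mock replicate 3, at 0.189. With the replicate block 5918 genes and 34 context genes were called, against 5229 and 27 without it, and the 3 and 2 counts stood. FADS2, at 210 to 295 reads in mock libraries, has the widest interval of the 10.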
